A study of Mus musculus with 4 samples.

Results

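The genes described here are 10 transcription factors of the mouse lens, *Hsf4*, *Foxe3*, *Maf*, *Pitx3*, *Prox1*, *Sox1*, *Sox2*, *Six3*, *Pax6* and *Tfap2a*, chosen by gene name from the 56748 genes of the expression table. All 10 passed the filter on low values, a mean of at least 0.1 FPKM (fragments per kilobase of gene, scaled to library size), as did 15997 genes in all. RNA was sequenced from whole lenses of mice 10 to 12 days old in 4 libraries. The mutant group, with 2 libraries, had the genotype *Fsp1-cre;Pdgfrb+/D849V*, in which *Fsp1-cre* switches on an overactive platelet-derived growth factor receptor beta expressed from its own gene locus. The control group, with 2 libraries, is labelled *Fsp1-cre;Pdgfrb+/+*, so that both labelled genotypes carry the cre. The study's methods describe the control pools as a mixture that also held mice without cre and mice with the D849V allele but no cre. Lenses of several mice were pooled for each library, the line was on an FVB/N background with a cre-dependent tdTomato reporter, and neither the *Fsp1* promoter nor the receptor allele is restricted to the lens. P-values therefore measure the spread between pools and not between single mice.

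Lens transcription factors act in an ordered way. *Pax6*, *Six3*, *Sox2* and *Tfap2a* set up the lens field in the surface ectoderm, *Foxe3* and *Pitx3* maintain the epithelium that covers the front of the lens, and *Prox1*, *Maf*, *Sox1* and *Hsf4* drive the fibre cells that elongate, fill with crystallins and lose their nuclei. A whole lens contains both compartments, so each value below is a mixture of epithelial and fibre RNA. The comparison asks whether the mutant genotype, at an age before opacity is visible, went along with a different level of these regulators. The paper reports robust cre reporter activity in the lens epithelium at a later age than that of these mice. It assumes that the mutant receptor is expressed once the cre is on. Whether the receptor was active in the sequenced lenses was not tested.

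None of the 10 genes differed between mutant and control lenses at an adjusted p under 0.05 (limma on log2(FPKM + 0.1), Benjamini-Hochberg adjustment over the 15997 genes tested), a threshold that 0.0375% of all genes passed. None passed an unadjusted p under 0.05 either, against 6.31% of all genes, and the smallest adjusted p among them was 0.811. By voom, a count test run on reads recovered from the table, 0 of 10 passed either threshold, against 0.0875% and 7.39% of all genes. The median fitted log2 fold change of the 10 genes was 0.01, and that of all genes tested was 0.00409. The 95% intervals of 9 of the 10 genes lay within a factor of 1.5 either way, and the exception was *Tfap2a*, with an upper bound of 1.55-fold. In whole lenses, fewer cells of a type and less RNA per cell cannot be told apart.

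**Figure D1:**
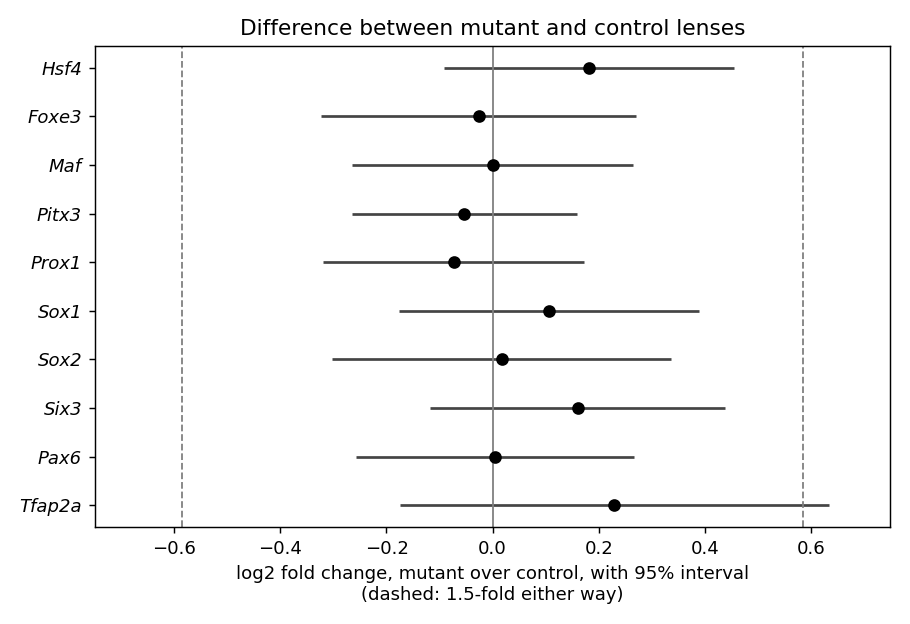
Fitted log2 fold change (x axis, mutant over control) of each of the 10 transcription factors, ordered from top to bottom by level. Points are limma estimates from 2 mutant and 2 control libraries, bars are 95% intervals and dashed lines mark 1.5-fold either way; every interval includes 0 and only that of *Tfap2a* passes a dashed line.

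The libraries were of nearly equal depth, between 18561682 and 18878768 recovered reads, of which crystallin genes took 58.6% to 62.9%. Checked against lens markers, 23 of 24 fibre markers were detected in every library, with the membrane channel gene *Mip* between 3515 and 3974 FPKM, and 22 or 23 of 24 epithelial markers were. The fibre membrane gene *Lim2* was listed at 0 in all 4 libraries. *Pdgfrb* itself was at 2.36 and 2.16 FPKM in the mutant libraries and 2.25 and 1.79 FPKM in the controls, and since the mutant allele differs by a point mutation these values do not check the genotype labels. *Xist* was at 7.62 and 13.1 FPKM in mutant replicates 1 and 2 and at 15.6 and 5.56 FPKM in control replicates 1 and 2, so it differed more within each group than between the group means.

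The 10 factors spanned a 52.3-fold range in control lenses, from among the most abundant transcription factor transcripts of the tissue to a moderate level. Of 1525 genes to which the deposited table assigns a transcription factor family, 919 were tested, with a median level of 0.932 FPKM. *Hsf4* ranked 3 among these 919 genes, *Foxe3* 4, *Maf* 6, *Pitx3* 8, *Prox1* 11 and *Sox1* 12. *Sox2* ranked 25, *Six3* 51, *Pax6* 56 and *Tfap2a* 165. The first and the second places were held by *Ybx1* and *Carhsp1*, genes of the cold shock domain class. Summed FPKM of the 10 factors made up 17.2% and 17.8% of the FPKM of all 919 genes in mutant replicates 1 and 2, and 16.5% and 17.5% in control replicates 1 and 2, so these shares overlapped between the groups.

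**Figure D2:**
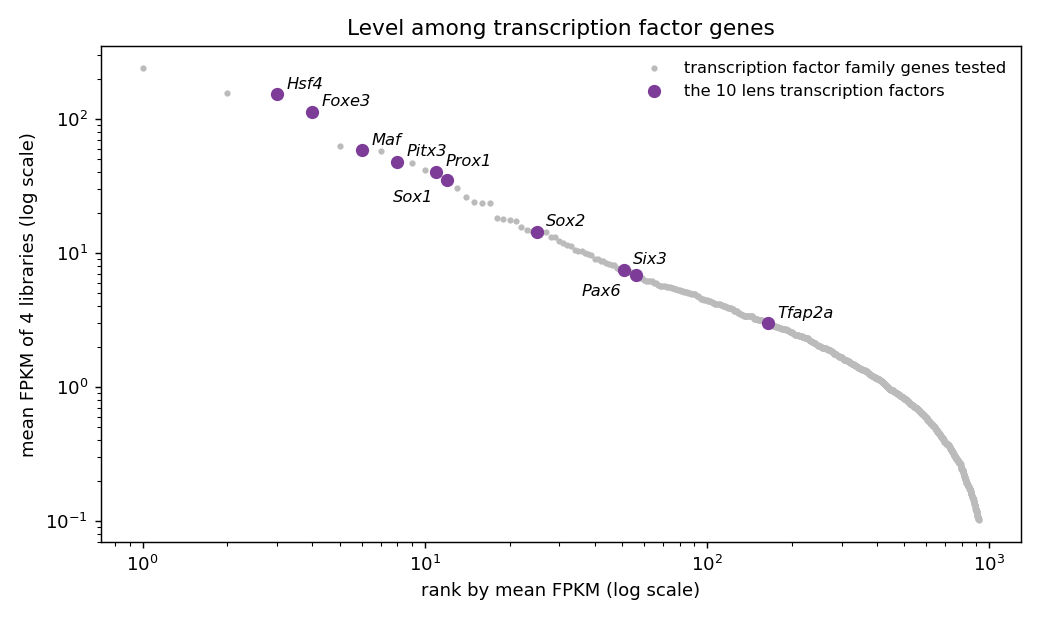
Mean FPKM over the 4 libraries (y axis, log scale) against rank (x axis, log scale) for the 919 tested genes with a transcription factor family in the deposited table. The 10 lens transcription factors, in purple, take 6 of the 12 highest places, and *Tfap2a* is the lowest of them at rank 165.

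In the order of control means, 7 of the 9 steps from a gene to the next were separated across all 4 libraries. The ranges of *Prox1* and *Sox1* overlapped, although *Prox1* was above *Sox1* within each library. The ranges of *Six3* and *Pax6* overlapped too, and *Pax6* was above *Six3* in control replicate 1 only. The order also depends on the gene length used, because the table divides by the summed length of all exons of a gene. Divided instead by the longest coding transcript of the GENCODE M21 annotation, *Pax6*, whose table length of 11694 bases is 2.64 times that of its longest coding transcript, came to a mean of 18.2 FPKM and moved above *Sox2* at 14.4 FPKM. The differences between mutant and control are not touched by this choice, since it rescales all 4 libraries alike.

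**Figure D3:**
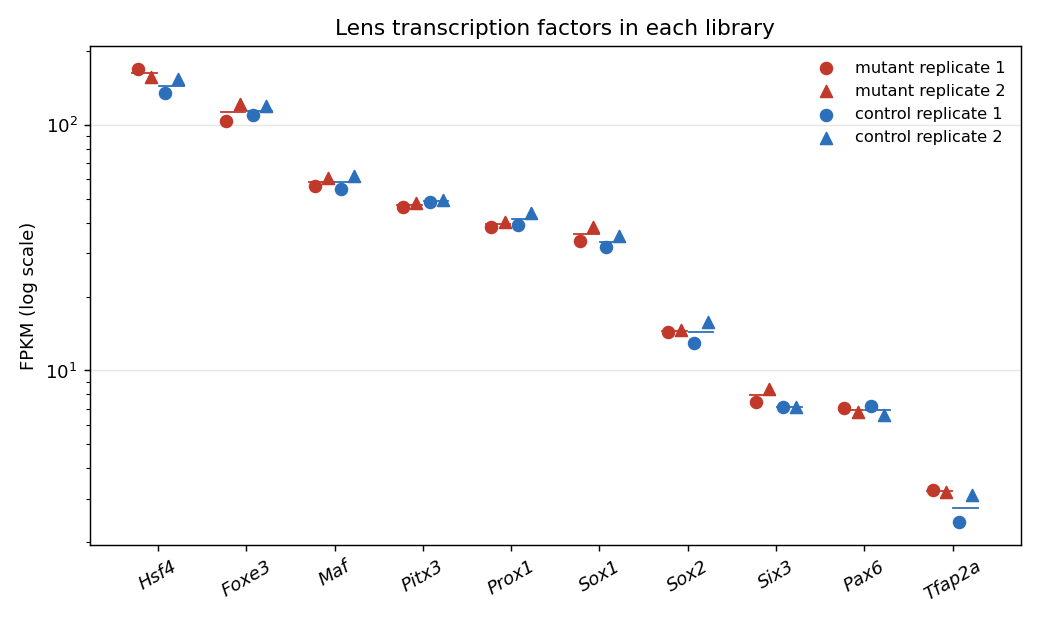
FPKM of each transcription factor (y axis, log scale) in the 2 mutant libraries (red) and the 2 control libraries (blue), with replicate 1 as circles and replicate 2 as triangles; short lines are group means. The spread between libraries of a gene, at most 1.36-fold, is small beside the 52.3-fold range between genes.

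*Hsf4* (chr8:105996433-106002477, plus strand, in the mm39 build of the table, as are the gene positions that follow), a heat shock factor whose loss causes cataract and which acts in differentiating fibre cells, was the most abundant of the 10. It was at 169.6 and 157.2 FPKM in mutant replicates 1 and 2 and at 135.1 and 153.5 FPKM in control replicates 1 and 2. Both mutant libraries were above both controls, by a small margin from control replicate 2. The fitted fold change was 1.13 (95% interval 0.938 to 1.37, limma adjusted p = 0.811), and without control replicate 1 the log2 fold change of 0.18 became 0.09, and 0.27 without control replicate 2. Among the heat shock factors *Hsf1*, *Hsf2* and *Hsf4*, *Hsf4* made up 98.5% to 98.8% of the summed FPKM of a library. *Hsf1*, the general regulator of the heat shock response, was at 1.21 to 1.51 FPKM and *Hsf2* at 0.567 to 0.887 FPKM.

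*Maf* (chr8:116409681-116434533, minus strand), the large Maf factor that activates crystallin genes in fibre cells, was at 56.2 and 60.6 FPKM in the mutants and at 54.9 and 62.1 FPKM in the controls. The mutant values lay between the control values, and the fitted log2 fold change was 0.00 (95% interval -0.26 to 0.26, limma adjusted p = 0.9995). *Maf* is also known in macrophages. Of 10 myeloid markers, 10 were detected in at least 1 library, and their summed level was 3.05 to 3.27 FPKM in the mutants and 0.664 to 0.841 FPKM in the controls. In mutant replicates 1 and 2, 9 and 10 of the markers were detected, and 7 were detected in each control. *C1qa*, a complement gene, was at 1.02 and 0.638 FPKM in the mutants and 0.445 and 0.261 FPKM in the controls. *Tyrobp*, a myeloid signalling adaptor, was at 1.35 and 0.689 FPKM in the mutants, against 0 and 0.0813 FPKM in the controls. The part of these cells in the *Maf* values was not tested.

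*Prox1* (chr1:189850232-189902911, minus strand), a homeodomain factor needed for fibre cells to leave the cell cycle and elongate, was at 38.3 and 40.3 FPKM in the mutants and at 39.3 and 43.6 FPKM in the controls. The groups overlapped, and the fitted fold change was 0.950 (95% interval 0.801 to 1.13, limma adjusted p = 0.881). Its paralogue *Prox2* reached no more than 0.261 FPKM in a library. Of the exon bases of *Prox1*, 133, or 1.59%, are shared on the opposite strand with the noncoding gene *Prox1os*, and whether strand was used in counting is not given in the sources used here.

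*Sox1* (chr8:12445295-12450126, plus strand) and *Sox2* (chr3:34704554-34706610, plus strand) are close relatives of the SoxB1 group that bind the same DNA motif, *Sox2* early in the lens field with *Pax6* and *Sox1* later in fibre cells at crystallin promoters. Their coding sequences are shown over the stretch in which they are most alike, which encodes the DNA-binding HMG box. Only a read lying wholly within an identical stretch could be counted for either gene, and whether any did was not tested. Over 291 bases of coding sequence in the GENCODE M21 transcripts, 253 bases, or 86.9%, are identical, 38 bases differ, 28 of them at the third position of a codon, and the longest identical run is 38 bases. Capitals mark the differing bases; the stretch spans coding positions 145 to 435 of 1173 in *Sox1* and 121 to 411 of 957 in *Sox2*, counted from the A of the start codon.
Sox1: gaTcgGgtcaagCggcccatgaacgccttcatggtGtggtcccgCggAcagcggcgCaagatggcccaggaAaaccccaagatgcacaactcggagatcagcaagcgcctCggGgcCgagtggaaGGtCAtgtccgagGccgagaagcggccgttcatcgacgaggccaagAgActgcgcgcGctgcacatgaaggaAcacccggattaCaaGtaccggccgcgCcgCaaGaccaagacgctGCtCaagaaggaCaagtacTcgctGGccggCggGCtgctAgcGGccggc
Sox2: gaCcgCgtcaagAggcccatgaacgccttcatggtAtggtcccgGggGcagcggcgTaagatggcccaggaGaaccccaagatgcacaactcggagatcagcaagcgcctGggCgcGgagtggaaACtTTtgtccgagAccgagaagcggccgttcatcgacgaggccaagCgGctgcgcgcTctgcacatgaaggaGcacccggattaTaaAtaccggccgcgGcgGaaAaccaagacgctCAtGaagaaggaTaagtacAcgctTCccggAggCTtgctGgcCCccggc

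Only 18 of 2027 words of 31 bases of the *Sox2* transcript, or 0.888%, occurred in another gene, namely *Sox1*, *Sox21* or *Sox3*, so that most of the *Sox2* transcript is distinct at this length. The share was 2.06% for *Sox1*, spread over 2734 other genes. Over the 10 factors it ranged from 0% (*Hsf4* and *Pitx3*) to 12.7% (*Tfap2a*), with 5.38% for *Maf* and 3.94% for *Six3*. The shared words of *Maf*, *Six3* and *Tfap2a* occurred in 3018, 3276 and 111 other genes. Words were matched on either strand, so exons of opposite-strand neighbours can count. These shares therefore do not measure likeness to related genes. *Sox1* was at 33.8 and 38.4 FPKM in the mutants and at 31.7 and 35.3 FPKM in the controls. The groups overlapped (log2 fold change 0.11, 95% interval -0.18 to 0.39, limma adjusted p = 0.840). *Sox2* was at 14.3 and 14.6 FPKM in the mutants and at 12.9 and 15.8 FPKM in the controls. Here the controls bracketed the mutants, and the fitted log2 fold change was 0.02 (95% interval -0.30 to 0.34, limma adjusted p = 0.986). The ratio of *Sox1* to *Sox2* was 2.36 and 2.63 in the mutants and 2.45 and 2.23 in the controls, so it too overlapped. *Sox1* was the main SoxB1 transcript in every library, with 68.4% to 72.3% of the summed FPKM of the group, and *Sox3* had at most 0.916%. *Sox21* was listed at 0 in all 4 libraries.

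*Foxe3* (chr4:114782344-114783210, minus strand), the forkhead factor that keeps lens epithelial cells proliferating and is mutated in the dysgenetic lens mouse, was the most abundant epithelial regulator. It was at 103.4 and 121.7 FPKM in the mutants and at 109.5 and 119.2 FPKM in the controls. Mutant replicates 1 and 2 were the lowest and the highest of the 4 libraries, so the spread within the mutants was wider than any difference between the groups (fold change 0.982, 95% interval 0.799 to 1.21, limma adjusted p = 0.971). *Foxe3* is a gene without introns, and its table length of 867 bases equals the coding sequence of 864 bases with its stop codon. The deposited value thus counts coding reads only. Part of the coding sequence, in the forkhead DNA-binding domain, is identical in *Foxe1*. It is shown in capitals with 30 bases on each side, at coding positions 319 to 362, as the longest run shared with another gene.
Foxe3: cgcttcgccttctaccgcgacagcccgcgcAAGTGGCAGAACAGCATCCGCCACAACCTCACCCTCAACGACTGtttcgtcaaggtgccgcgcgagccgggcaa

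This run of 44 bases and one of 33 bases shared with *Foxd1* hold all 17 of the 837 words of 31 bases that *Foxe3* has in common with other genes. *Foxe1* and *Foxd1* were both listed at 0 in all 4 libraries. *Pdgfra*, the platelet-derived growth factor receptor of the lens epithelium, was at 4.02 and 5.25 FPKM in the mutants and 5.86 and 5.32 FPKM in the controls (log2 fold change -0.28, limma adjusted p = 0.811). *Foxe3* exceeded it 25.7-fold and 23.2-fold in mutant replicates 1 and 2, and 18.7-fold and 22.4-fold in control replicates 1 and 2.

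*Pitx3* (chr19:46124124-46136765, minus strand), a homeodomain factor whose promoter deletions cause the aphakia mouse, was at 46.3 and 48.3 FPKM in the mutants and at 48.6 and 49.5 FPKM in the controls. Both mutant libraries lay below both controls, yet all 4 values were within 1.07-fold of each other, the narrowest spread of the 10 genes. The fitted fold change was 0.964 (95% interval 0.832 to 1.12, limma adjusted p = 0.902). None of its 31-base words was found in another gene.

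*Pax6* (chr2:105499245-105527709, plus strand), the paired domain and homeodomain factor at the head of eye development, was at 7.03 and 6.80 FPKM in the mutants and at 7.18 and 6.62 FPKM in the controls. The controls bracketed the mutants, and the fitted fold change was 1.003 (95% interval 0.836 to 1.20, limma adjusted p = 0.997). *Pax2* was listed at 0 in 3 libraries and at 0.00944 FPKM in mutant replicate 2. The value of *Pax6* adds up reads from whichever of its transcription starts were in use. RefSeq lists 2 start windows of 300 bases (250 before and 50 after the start) that are 13567 bases apart, and both are printed because the table does not separate their transcripts. They lie on the plus strand at chr2:105668646-105668945 and chr2:105682213-105682512 of GRCm38.p6, a build other than the mm39 given in the labels for the expression table. Capitals mark matches on either strand to 6 strings, none of which contains another: the TATA box letters TATAA, the CCAAT box letters CCAAT, the GC box letters GGGCGG, the cAMP response element TGACGTCA, the AP-1 element TGACTCA and the octamer ATGCAAAT.
Pax6 upstream start: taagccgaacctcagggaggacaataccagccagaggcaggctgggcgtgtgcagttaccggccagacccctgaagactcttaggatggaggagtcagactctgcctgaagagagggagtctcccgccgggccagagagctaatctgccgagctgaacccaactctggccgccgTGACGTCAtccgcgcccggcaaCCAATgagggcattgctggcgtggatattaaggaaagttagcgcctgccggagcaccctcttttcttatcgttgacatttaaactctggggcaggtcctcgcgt
Pax6 downstream start: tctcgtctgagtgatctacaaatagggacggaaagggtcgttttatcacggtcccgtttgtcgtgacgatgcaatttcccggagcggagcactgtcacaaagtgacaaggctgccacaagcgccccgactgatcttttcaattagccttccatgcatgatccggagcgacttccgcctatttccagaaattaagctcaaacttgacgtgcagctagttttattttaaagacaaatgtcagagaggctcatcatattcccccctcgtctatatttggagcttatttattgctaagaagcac

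The upstream window held 1 match to the cAMP response element, present in 1.79% of 32851 promoter windows, and 1 to CCAAT, present in 37.4%. The downstream window held no match to any of the 6 strings. The GC content of the windows was 58.7% and 46.3%. A match describes the letters in a window and says nothing about which start was used in these lenses.

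*Six3* (chr17:85921036-85936730, plus strand), a homeodomain factor that helps set up the lens field, was at 7.44 and 8.42 FPKM in the mutants and at 7.07 FPKM in both controls. Both mutant libraries lay above the controls, mutant replicate 1 by little. The fitted fold change was 1.12 (95% interval 0.921 to 1.35, limma adjusted p = 0.811), and the log2 fold change of 0.16 became 0.07 without mutant replicate 2 and 0.25 without mutant replicate 1. Of the related genes, *Six5* was at 3.13 to 3.79 FPKM and *Six6* at 0.0839 to 0.282 FPKM. *Six3*, *Pax6* and *Sox2* are also expressed in retina and ciliary epithelium. The summed level of 18 retinal markers was 4.49 and 6.92 FPKM in mutant replicates 1 and 2 and 5.27 and 4.16 FPKM in control replicates 1 and 2. The sum includes *Glul*, a glial enzyme of broad expression, at 2.42 to 2.80 FPKM, so it does not measure retina alone. *Vsx1* was listed at 0 throughout. The part of retinal RNA in the *Six3* values was not tested.

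*Tfap2a* (chr13:40868778-40891852, minus strand), the AP-2 factor of the surface ectoderm and lens epithelium, was the lowest of the 10, at 3.27 and 3.19 FPKM in the mutants and at 2.41 and 3.11 FPKM in the controls. Control replicate 1 stood apart from the other 3 libraries, which lay between 3.11 and 3.27 FPKM. The fitted fold change was 1.17 (95% interval 0.886 to 1.55, limma adjusted p = 0.811), and without control replicate 1 the log2 fold change of 0.23 became 0.05, while without control replicate 2 it became 0.40. This gene also had the fewest reads, 286 and 306 in the mutants and 230 and 281 in the controls. It made up at least 99.3% of the summed FPKM of *Tfap2a*, *Tfap2b* and *Tfap2c* in each library. The noncoding genes *Gm26688* and *Gm47061* share 7.75% and 5.40% of its exon bases on the opposite strand. *Tfap2a* is also found in the corneal epithelium, where *Aldh3a1* is a major enzyme and *Krt15* a basal keratin. The summed level of 8 corneal markers was 0.274 to 0.898 FPKM in the mutants and 0.672 to 0.822 FPKM in the controls, with *Aldh3a1* at 0.158 to 0.867 FPKM and *Krt15* at 0 to 0.146 FPKM. The stromal markers *Kera* and *Lum* were listed at 0.

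Across the 10 genes, fitted differences between genotypes were mostly no larger than the spread between pools. For 6 of the 10 the fitted log2 fold change was smaller than the standard deviation between replicates on the same scale, and for 6 it was under 0.1 in size. The groups did not overlap for 4 of the 10 genes, namely *Hsf4*, *Six3* and *Tfap2a* with higher values in the mutants and *Pitx3* with lower values. Among all genes tested the groups did not overlap for 36.6%, with 18.2% higher and 18.3% lower, so the share among the factors was near the background. The fitted value was above 0 for 7 of the 10 genes, against 50.7% of all genes, but 3 of the 7 were under 0.02 (*Maf*, *Pax6* and *Sox2*) and turned negative when reads were scaled by library totals. The median replicate SD (log2 scale) was 0.105 for the 10 factors, 0.175 for all 919 transcription factor genes and 0.193 for all genes tested. Counting error set a floor of 0.0152 (*Maf*) to 0.0874 (*Tfap2a*) on the log2 scale for the standard error of a fold change.

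Libraries of the same genotype deviated in different directions. Control replicate 1 held the lowest value of 5 of the 10 genes, *Hsf4*, *Maf*, *Sox1*, *Sox2* and *Tfap2a*, with a median log2 difference of -0.08 from the mean of the 4 libraries. The medians of mutant replicates 1 and 2 and of control replicate 2 were -0.02, 0.05 and 0.05. Lens compartment genes deviated too: in mutant replicate 1 the median was 0.16 for crystallins, 0.08 for fibre genes and -0.15 for epithelial genes. In control replicate 1 these medians were -0.07, -0.09 and 0.12. The factors did not all deviate with the genes of their compartment. Of the fibre factors, *Hsf4* was at 0.15 in mutant replicate 1 and -0.18 in control replicate 1, in the same directions as the fibre genes. *Maf*, *Prox1* and *Sox1* were at -0.05, -0.07 and -0.04 in mutant replicate 1, against the fibre genes. In control replicate 1 they were at -0.09, -0.04 and -0.13, in the direction of the fibre genes. Of the epithelial factors, *Foxe3* was at -0.13 in mutant replicate 1, in the direction of the epithelial genes, but at -0.05 in control replicate 1. *Pitx3* was at -0.06 in mutant replicate 1 and 0.01 in control replicate 1, in the directions of the epithelial genes. *Tfap2a*, at 0.13 and -0.29 in these libraries, deviated against the epithelial genes in both. The part of the mix of compartments in these values was not tested.

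**Figure D4:**
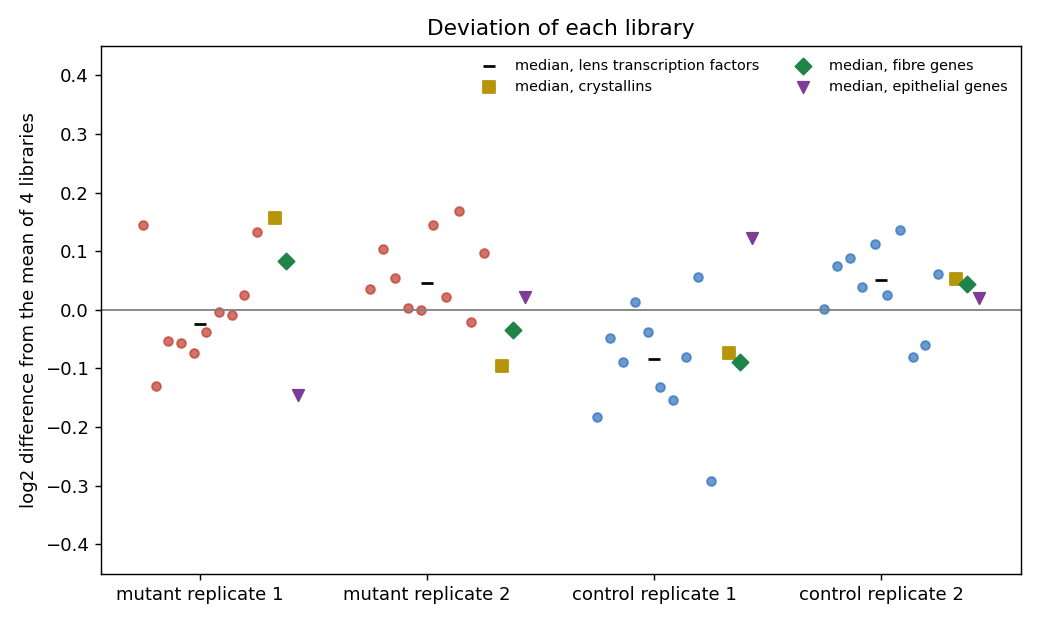
Log2 difference of each library from the mean of the 4 libraries (y axis) for the 10 transcription factors (circles, red in mutant and blue in control libraries, in the order of their level from left to right), with the median of the factors and of 3 lists of lens genes. Mutant replicate 1 has the highest crystallin median, 0.16, and the lowest epithelial median, -0.15, while the median of the factors stays between -0.08 and 0.05.

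Other regulators of eye and lens development were described from a list of 35, of which 27 were tested. None had an adjusted p under 0.05, 4 had an unadjusted p under 0.05 by limma, 3 higher (3.39% of all genes were) and 1 lower (2.92% of all genes were), and the median log2 fold change was -0.10. *Mab21l2*, required for lens and optic cup growth, was at 0.938 and 1.16 FPKM in the mutants and 0.371 and 0.356 FPKM in the controls (log2 fold change 1.30 ± 0.21 SE, adjusted p = 0.343), from 51 and 69 reads against 22 and 20. *Tbx2*, a T-box repressor of the optic field, was at 0.727 and 0.676 FPKM against 0.340 and 0.299 FPKM (log2 fold change 0.93 ± 0.22 SE, adjusted p = 0.643). *Lhx2*, a LIM homeodomain factor of the optic vesicle, was at 0.511 and 0.477 FPKM against 0.304 and 0.210 FPKM (log2 fold change 0.75 ± 0.29 SE, adjusted p = 0.787). In each of these the mutant values lay above both controls, at levels under those of all 10 factors. They were named for a small p, which makes such a gap likely. Among the 27 the groups did not overlap for 6 genes higher (18.2% of all genes were) and 7 lower (18.3% of all genes were). *Mafg*, a small Maf partner, was at 13.7 and 13.8 FPKM in the mutants and 16.7 and 15.8 FPKM in the controls (log2 fold change -0.24 ± 0.09 SE, adjusted p = 0.784). *Lhx2*, *Tbx2* and *Mab21l2* are known from retina and ciliary margin. Of 13 markers of pigmented, ciliary and iris cells, the summed level was 4.84 to 5.80 FPKM in the mutants and 4.70 to 4.73 FPKM in the controls, with *Mitf*, a pigment cell factor, at 1.67 and 1.69 FPKM against 1.44 and 1.30 FPKM and *Zic1*, a zinc finger factor, at 0.975 and 1.37 FPKM against 0.732 and 0.743 FPKM. *Rpe65* was listed at 0, and the part of these cells in the values of the 3 genes was not tested. Over all 919 transcription factor genes, 34 had an unadjusted p under 0.05, 10 higher and 24 lower, and 0 had an adjusted p under 0.05.

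The crystallins, the structural proteins that *Maf*, *Pax6*, *Sox1*, *Sox2*, *Prox1* and *Hsf4* are known to control, gave no gene past either threshold among 16 tested, with a median log2 fold change of 0.01. The smallest p-values belonged to *Cryga*, *Crybb3* and *Crybb2*. *Cryga* was at 26756 and 22076 FPKM in the mutants and 19774 and 20771 FPKM in the controls (adjusted p = 0.811 by limma). *Crybb3* was at 13437 and 12258 FPKM against 10809 and 11729 FPKM (adjusted p = 0.831). *Crybb2* was at 19214 and 13681 FPKM against 17929 and 19066 FPKM, with the low value in mutant replicate 2 only (adjusted p = 0.881). Mutant replicate 1 held the highest value of 13 of the 16 crystallins.

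Of 23 fibre genes tested, 0 had an adjusted p under 0.05 and 2 had an unadjusted p under 0.05, both lower in the mutants (2.92% of all genes were), and the median log2 fold change was 0.02. *Lgsn*, the lens-specific glutamine synthetase-like gene lengsin, was at 19.0 and 5.54 FPKM in the mutants and 28.5 and 41.0 FPKM in the controls. Its fitted log2 fold change was -1.72 ± 0.58 SE (limma adjusted p = 0.769), and by voom the adjusted p was 0.00562. The limma value depended on the mutant library used, with a log2 fold change of -2.61 without mutant replicate 1 and -0.84 without mutant replicate 2. *Caprin2*, an RNA-binding protein gene of fibre cells, was at 80.6 and 75.1 FPKM against 55.9 and 69.8 FPKM (limma adjusted p = 0.806).

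Of 22 epithelial genes tested, 0 had an adjusted p under 0.05 and 1 an unadjusted p under 0.05, lower in the mutants (2.92% of all genes were). The median log2 fold change was -0.07, with 16 of 22 fitted below 0. The groups did not overlap for 12 of the 22, 10 of them lower in the mutants (18.3% of all genes were) and 2 higher (18.2% of all genes were). *Itga6*, a laminin receptor subunit, was at 7.67 and 7.44 FPKM in the mutants and 9.30 and 9.97 FPKM in the controls (log2 fold change -0.35 ± 0.10 SE, limma adjusted p = 0.706). *Cdh2*, N-cadherin, was at 11.4 and 13.4 FPKM against 15.5 and 14.9 FPKM (limma adjusted p = 0.788). *Ccnd1*, cyclin D1, was at 5.40 and 7.67 FPKM against 10.8 and 8.21 FPKM (limma adjusted p = 0.800). Mutant replicate 1 held the lowest value of 14 of the 22 epithelial genes, and *Foxe3* was lowest there too, while *Pitx3* and *Prox1* were the other factors of the 10 with their lowest value in that library. By voom 7 of the 22 epithelial genes had an unadjusted p under 0.05, and without mutant replicate 2 the limma fit gave 6, so the count of this list depends on the test and on that library.

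**Figure D5:**
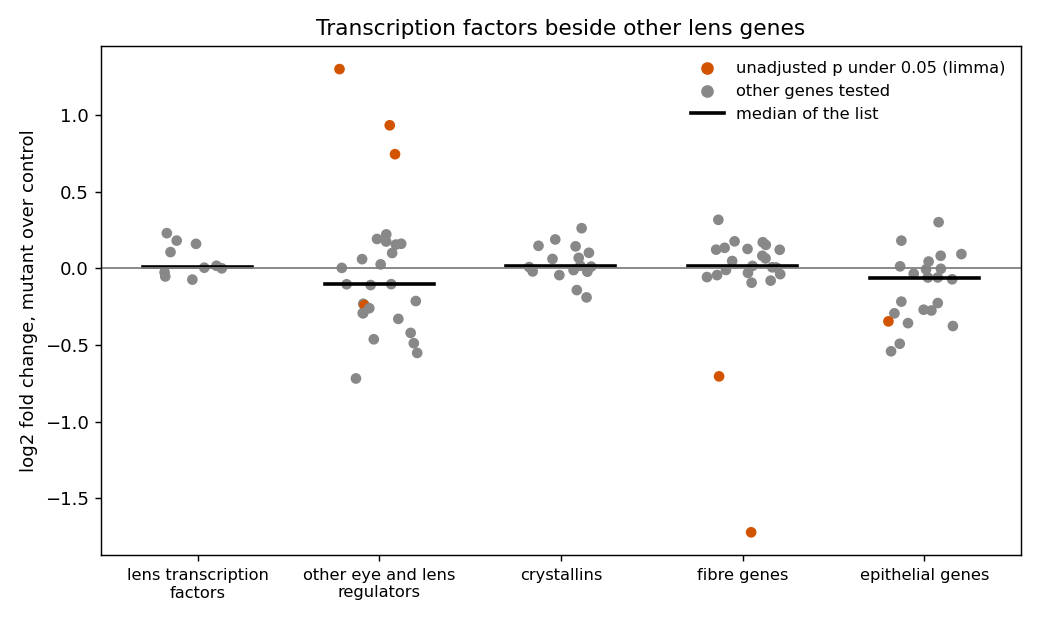
Fitted log2 fold change (y axis, mutant over control) of each tested gene in 5 lists; black lines are list medians and orange points have an unadjusted p under 0.05 by limma. The 10 lens transcription factors lie between -0.07 and 0.23 with no orange point, while the other regulators and the fibre genes hold single genes far from 0.

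Markers of other cells that can stay attached to a dissected lens were summed in the same way. The sums were low beside those of the crystallin, fibre and epithelial lists. Those of endothelial, mural and blood markers were near or above the levels of *Six3*, *Pax6* and *Tfap2a*. Retinal sums and those of pigmented, ciliary and iris markers were above *Tfap2a* in every library. Myeloid sums were close to *Tfap2a* in the mutants. The summed level of 10 endothelial markers was 7.62 to 11.3 FPKM in the mutants and 10.0 to 12.1 FPKM in the controls, with *Cldn5*, a tight junction gene, at 3.57 to 5.94 FPKM and *Eng* at 1.12 to 1.93 FPKM. That of 8 mural markers was 14.5 to 16.7 FPKM against 15.04 to 16.1 FPKM, with *Acta2*, smooth muscle actin, at 9.79 to 12.6 FPKM and *Rgs5*, a pericyte gene, at 2.47 to 4.60 FPKM. That of 7 blood markers was 17.2 to 25.2 FPKM against 21.6 to 34.9 FPKM, most of it from the haemoglobin genes *Hba-a1* and *Hbb-bs*, with *Hba-a2* listed at 0. That of 5 neural crest and Schwann cell markers was 0.141 to 0.249 FPKM against 0.232 to 0.350 FPKM, with the myelin gene *Mbp* at 0 to 0.0641 FPKM, and *Sox10* and *Foxd3* listed at 0. These 4 sums overlapped between the groups, as did those of the retinal and corneal lists. Those of the myeloid and the pigmented, ciliary and iris lists did not, while 36.6% of all single genes tested did not overlap either. Sums of the latter list were close, 4.84 FPKM or more in the mutants and 4.73 FPKM or less in the controls. Of its 6 tested genes, 4 were fitted higher and 2 lower. Among 10 endothelial genes tested, 9 were fitted lower and 1 higher in the mutants, with a median log2 fold change of -0.38. The groups did not overlap for 3 of these 10, all lower (18.3% of all genes were). Among 9 retinal genes tested, 7 were fitted higher and 2 lower, with a median of 0.42. The groups did not overlap for 1 of these 9, which was lower. Of all genes tested, 50.7% were fitted above 0. Only 5 of the 10 myeloid markers passed the filter on mean FPKM. All 5 were higher in the mutants at an unadjusted p under 0.05 by limma (3.39% of all genes were). *Tyrobp* passed the filter only through the mutants, with 16 and 9 reads against 0 and 1 in the controls. The count of 5 is thus partly set by the filter. None of these 5 had an adjusted p under 0.05.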

How the data were processed

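The authors' sequencing provider aligned the reads from pooled lenses (HISAT2), counted reads on genes (featureCounts) and computed the deposited FPKM, and also tested differences with DESeq2. The build is mm39 per the labels. The annotation release and the strand setting are not given in the sources used here. The table has 0 unused per-sample columns.

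FPKM was rescaled by median ratios (a factor of 1.01 in every library) and tested on log2(FPKM + 0.1) with limma 3.58.1 (lmFit, eBayes with a trend, two-sided, Benjamini-Hochberg adjustment) in R 4.3.3, for genes whose mean FPKM was at least 0.1. Fold changes on this scale understate changes of low genes. FPKM times gene length gave whole reads for 100% of values (within 0.001 of a read), and voom was run on these as an alternative. Tables and plots were made with Python 3.11.15 (pandas 2.3.3, matplotlib 3.10.9), and the tests were tried on simulated data.

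The 10 factors and the gene lists were chosen with earlier results of these data known. Named beside the 10 are listed genes with an unadjusted p under 0.05 (at least the 3 smallest p of a list, at most 8) and the 2 highest markers of each other cell type. Related, overlapping and sequence-sharing genes, *Pdgfra*, *Pdgfrb*, *Xist*, *Ybx1*, *Carhsp1* and markers listed at 0 were added to these once their values had been seen, outside the rule. Some genes that this rule names are not reported here. Replicate numbers in the labels name libraries only: deviations of same-numbered libraries correlated at r = -0.00508 over 15997 genes. Alternatives were other scalings, filters, pseudocounts, tests, a covariate for *Xist*, a replicate block and leaving out each library.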

Additional observations from a re-analysis of the deposited data

How the results depend on the processing

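With 2 pools per group, the intervals of the 10 factors leave room for changes up to 1.55-fold, and genes with few reads, such as *Tfap2a*, are least precise. None of the 10 factors had an adjusted p under 0.05 in any of the 16 alternatives, where the smallest adjusted p of any of them was 0.592. *Hsf4*, *Sox1*, *Six3* and *Tfap2a* stayed above 0 and *Pitx3* and *Prox1* below 0 in all 16. Fold changes could not move with FPKM as deposited, other filters, no trend, the *Xist* covariate or the replicate block. In those settings the sign was fixed in advance. The cause of the changes that follow was not tested.

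The 7 factors fitted above 0 became 4 under quantile normalization and 4 with reads scaled by library totals. *Maf* turned to -0.066, -0.031 and -0.012 under quantile normalization, scaling by library totals and scaling without crystallins. *Pax6* turned to -0.0055, -0.026 and -0.0080 under the same 3 settings, and *Sox2* to -0.016 and -0.014 under the first and the second. When each library was left out in turn, log2 fold changes ranged from -0.15 to 0.090 for *Foxe3*, -0.087 to 0.083 for *Maf*, -0.13 to 0.16 for *Sox2*, -0.060 to 0.064 for *Pax6* and -0.44 to 0.053 for *Crybb2*. Those of the other factors kept their sign but also moved by more than 1.5 times, from 0.091 to 0.27 for *Hsf4*, -0.086 to -0.024 for *Pitx3*, -0.15 to -0.0040 for *Prox1* (nearest 0 without control replicate 2), 0.012 to 0.20 for *Sox1* (nearest 0 without mutant replicate 2), 0.069 to 0.25 for *Six3* and 0.055 to 0.40 for *Tfap2a*. The median of the 10 factors ranged from -0.017 to 0.12, the higher value without control replicate 2, and the number with an unadjusted p under 0.05 from 0 to 1, the 1 being *Six3* without mutant replicate 1.

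The 4 other regulators with an unadjusted p under 0.05 became 2 with the *Xist* covariate, 2 with scaling by library totals and 0 at a mean of at least 1 FPKM, and ranged from 2 to 5 with a library left out. Their median was -0.22 at a mean of at least 1 FPKM, 0.015 with no filter, -0.045 with a pseudocount of 1, and -0.20 to -0.067 with a library left out. The count for crystallins, 0, became 1 under quantile normalization, 2 with scaling by library totals and 1 by voom, and their median ranged from -0.093 to 0.16 with a library left out. For fibre genes voom gave 1 adjusted call, *Lgsn*, the count of 2 became 0 without the trend and 0 to 1 with a library left out, and the median ranged from -0.034 to 0.11. The count of 1 for epithelial genes became 6 with the *Xist* covariate, 0 without the trend, 3 at a mean of at least 1 FPKM, 2 with no filter, 2 with a pseudocount of 0.01, 3 with scaling without crystallins, 7 by voom and 0 to 6 with a library left out, where the median ranged from -0.26 to -0.029.

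With the replicate block, 0 of the 10 factors passed either threshold, and the 4 other regulators with an unadjusted p under 0.05 became 2. It changed no other count of calls among the 10 factors, crystallins, fibre genes and epithelial genes, and other calls were not compared under it. Same-numbered libraries share only a number, and it took the calls over all genes from 6 to 3 adjusted and from 1009 to 880 unadjusted.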

Other observations

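Several of the 10 factors have noncoding neighbours that the table lists separately. *Prox1os*, on the strand opposite *Prox1*, was at 61.5 and 57.0 FPKM in mutant replicates 1 and 2 and at 52.6 and 55.3 FPKM in control replicates 1 and 2, above *Prox1* in every library (limma log2 fold change 0.14, adjusted p = 0.811). The ratio of *Prox1* to *Prox1os* was 0.623 and 0.707 in the mutants and 0.747 and 0.789 in the controls, lower in both mutant libraries. *Sox1ot*, which surrounds *Sox1* on the same strand with 0 shared exon bases, was at 16.8 and 14.7 FPKM in the mutants and 18.4 and 21.4 FPKM in the controls, while *Sox1* itself overlapped between the groups. Its log2 fold change was -0.33 (limma unadjusted p = 0.0432, adjusted p = 0.787), and the difference between *Sox1ot* and *Sox1* was not tested. *Sox2ot*, around *Sox2*, was at 3.03 and 2.64 FPKM in the mutants and 2.56 and 2.52 FPKM in the controls (adjusted p = 0.811 by limma). *Six3os1*, which shares 106 exon bases with *Six3* on the opposite strand, was at 7.18 and 7.36 FPKM in the mutants and 7.74 and 7.49 FPKM in the controls, close to the level of *Six3* (limma adjusted p = 0.894). *Pax6os1* was at 0.235 to 0.699 FPKM, from 7 to 22 reads. Whether reads were counted by strand is not given in the sources used here, so shared bases of opposite genes cannot be told apart.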
